A study of Mus musculus with 2 samples.

Results

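The genes described here, most of which encode the core machinery of nuclear transcription, were read in livers of mice whose kidneys had been injured. They were chosen by symbol alone: every probe set annotated to exactly 1 gene whose symbol starts with Polr1, Polr2 or Polr3 (RNA polymerase subunits), with Med and a digit (Mediator), or with Gtf2 or Gtf3 (general transcription factors). No measured value entered that rule, but the genes were singled out with earlier results of these arrays known, so their values are given as a description. It found 162 probe sets of 78 genes among the 34945 probe sets of 18193 genes that have 1 gene: 25 polymerase genes, 31 with a Mediator symbol and 22 general factor genes. Of these, Med9os is an opposite-strand transcript and no subunit, which leaves 77 members. Among them Gtf2i, Gtf2ird1 and Gtf2ird2 form the TFII-I family, counted with the general factors by symbol alone. The subunits Polr2k, Polr2l and Gtf2h2 are not analysed here.

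Liver RNA was compared between 2 pools of male wild-type C57BL/6 mice, 8 weeks old. The renal ischaemia-reperfusion mice had warm ischaemia of both kidneys for 30 minutes, the sham mice were operated on without it, and livers were collected 24 hours after surgery. Each pool combined liver of 3 mice and was hybridised to 1 Affymetrix array. With 1 array in each group there is no replicate, so no test or p-value is given, and each statement describes these 2 pools, not the spread between mice. Pooled animals hide whether 1 mouse set a value. In whole liver, fewer cells of a type and less RNA per cell cannot be told apart.

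RNA polymerase I transcribes the ribosomal RNA genes, polymerase II the messenger RNA genes, and polymerase III the transfer RNA and other small RNA genes. The enzymes share several small subunits and each has subunits of its own. Polymerase II finds its start sites with the general factors TFIIA, TFIIB, TFIID, TFIIE, TFIIF and TFIIH, while TFIIIA and TFIIIC serve polymerase III. Mediator bridges transcription factors at enhancers and polymerase II at the promoter, with a head and a middle that touch the polymerase, a tail that meets activators, a scaffold subunit, and a kinase module that can dissociate. In liver, Mediator subunits work with the nuclear receptors that control metabolism, Med1 being the one best known for binding them.

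Promoter sequence was available from RefSeq (GRCm38.p6) for 69 of the 78 genes, as windows of 300 bases from 250 before to 50 after a transcription start. Short elements were searched on both strands of these windows, allowing matches to overlap: CCGGAAG, a core of sites for ETS transcription factors, GGGCGG (a GC box), CACGTG (an E-box), CCAAT and TATAAA. The ETS core stood in 23 of the 69 (33.3%) and in 12.9% of 17492 protein-coding genes, some of which have several windows, as do 9 of the members. The E-box stood in 18.8% against 8.91%, and the GC box in 62.3% against 49.2%. CCAAT was found in 33.3% against 42.3% and TATAAA in 11.6% against 14.8%. The ETS core was found in 7 of 21 polymerase, 8 of 27 Mediator and 8 of 21 general factor genes. A letter match is a description and shows no bound site, and letters missing from a window say nothing about a factor. The sequences below run 5′ to 3′ from 130 bases before to 20 after the start, for 4 of the members whose signal after renal ischaemia-reperfusion was past 2-fold higher (Med10, Med4, Gtf2a2, Polr2e) and for both members with a 2-fold lower one (Gtf2i, Gtf3a). Capitals mark the searched elements.
Med10, GRCm38.p6 chr13:69809752-69809901, strand plus: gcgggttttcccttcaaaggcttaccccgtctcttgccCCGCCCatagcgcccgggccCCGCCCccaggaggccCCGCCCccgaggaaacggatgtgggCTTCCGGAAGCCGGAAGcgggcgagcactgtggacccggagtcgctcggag
Med4, GRCm38.p6 chr14:73509919-73510068, strand plus: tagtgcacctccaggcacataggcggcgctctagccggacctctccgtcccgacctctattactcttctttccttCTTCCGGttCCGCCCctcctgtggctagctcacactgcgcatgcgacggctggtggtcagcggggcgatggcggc
Gtf2a2, GRCm38.p6 chr9:70012418-70012567, strand plus: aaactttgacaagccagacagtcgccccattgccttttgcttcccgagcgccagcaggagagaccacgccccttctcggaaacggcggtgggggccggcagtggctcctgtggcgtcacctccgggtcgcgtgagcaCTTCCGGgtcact
Polr2e, GRCm38.p6 chr10:80039640-80039789, strand minus: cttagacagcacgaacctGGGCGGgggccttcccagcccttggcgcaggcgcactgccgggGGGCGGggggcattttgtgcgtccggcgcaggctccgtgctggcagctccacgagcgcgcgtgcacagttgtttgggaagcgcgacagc
Gtf2i, GRCm38.p6 chr5:134314741-134314890, strand minus: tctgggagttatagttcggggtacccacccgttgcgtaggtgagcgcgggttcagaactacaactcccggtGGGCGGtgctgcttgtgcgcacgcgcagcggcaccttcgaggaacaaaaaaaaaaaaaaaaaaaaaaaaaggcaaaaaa
Gtf3a, GRCm38.p6 chr5:146948527-146948676, strand plus: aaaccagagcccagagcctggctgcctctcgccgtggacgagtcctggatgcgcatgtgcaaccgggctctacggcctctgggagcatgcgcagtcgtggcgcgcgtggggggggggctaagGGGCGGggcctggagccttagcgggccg
Med10 is shown by the downstream of its 2 windows, and the same 150 bases of the other hold none of the searched elements. The window shown holds 3 overlapping or adjoining ETS cores, which begin 31, 28 and 21 bases before the start, and 3 GC boxes further upstream. Med4 has an ETS core that begins 55 bases before the start, beside a GC box, and Gtf2a2 has one that begins 8 bases after it. Polr2e, Gtf2i and Gtf3a hold GC boxes and no ETS core in these 150 bases. The higher members not printed, Gtf2f2, Gtf2ird1, Med6, Med9 and Polr1d, also hold no ETS core there. All higher members with an ETS core in this stretch are thus among those shown. Over the full windows, 4 of the 9 members with a 2-fold higher signal and 1 of the 2 with a lower one held the ETS core. The members' 78 windows were also rich in CG dinucleotides, with a median of 13.0 in the printed stretch against 7.0 over 21263 windows of protein-coding genes.

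Signals were compared as log2 of the signal plus 16, where adding 16 damps the differences of dim probe sets, and every difference below is on that scale, positive where the signal after renal ischaemia-reperfusion was the higher one. A probe set was used when its signal reached the array median in at least 1 pool (257.0 sham, 254.1 renal ischaemia-reperfusion), and a gene was read by its brightest such probe set. This left 67 members (23 polymerase, 24 Mediator and 20 general factor genes), and in 60 of these both signals reached the median. For the 5 members dim in the sham pool and the 2 dim after renal ischaemia-reperfusion, a fold is given as a bound against the median of the dim array. Such a member passed through its brighter pool alone and had to differ, so counts over the 67 are descriptions. Under the filter were Gtf3c4, Gtf3c5, Med11, Med12l, Med20, Med21, Med22, Med23, Med9os, Polr1e and Polr3gl.

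The tissue label was borne out by hepatocyte markers, of which 10 of 10 measured stood at or above the array median in both pools, with a summed signal of 372156 in the sham pool and 479577 after renal ischaemia-reperfusion. The pools also differed in markers of other cells. Of 8 pancreatic acinar markers, 7 had a signal past 2-fold higher and 0 lower, and their summed signal went from 5197 to 13766. No acinar marker was at 0. Of the acinar markers, Cpa1 (18.5), Cpb1 (100.4) and Ctrb1 (115.6) were under the median in the sham pool. Of the cholangiocyte genes, Krt19 (72.4 to 511.4) and Epcam (180.6 to 1179) were dim in the sham pool alone, Sox9 went from 318.8 to 731.2 and Krt7 was dim in both pools, and the summed signal of the 4 cholangiocyte markers went from 653.1 to 2453. Of 9 Kupffer cell markers 2 were past 2-fold lower and 0 higher, and their summed signal went from 10450.3 to 6518. Of 4 neutrophil markers 2 were past 2-fold higher and 1 lower, with sums of 1195 and 3044. Sinusoidal endothelial markers had 1 higher and 2 lower of 7, stellate cell markers 1 and 1 of 6, and lymphocyte and erythroid markers 0 past 2-fold of 5 and 2. The part of these cells in the differences below was not tested.

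The 3 groups had similar medians. Most members had a slightly higher signal in the renal ischaemia-reperfusion pool, few passed 2-fold, and the largest single difference was a lower signal of Gtf2i. Among polymerase genes, 2 of 23 were at least 2-fold higher (8.70%) and 0 lower. Among Mediator genes these counts were 4 of 24 (16.7%) and 0, and among general factors 3 of 20 (15.0%) and 2 of 20 (10.0%). Of the general factor counts, 1 higher and 1 lower gene belong to the TFII-I family. Over all 13117 genes that passed, 8.71% were past the same line on the higher side and 9.59% on the lower side. The polymerase share of higher genes is thus near that of the background, and the Mediator and general factor shares rest on 4 and 3 genes. Several of those had a dim sham signal. Where both signals reached the median, 2 of 23 polymerase, 1 of 20 Mediator and 1 of 17 general factor genes were at least 2-fold higher. Over all genes with both signals at or above the median, 561 of 10923 were.

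The small shift was broader than the 2-fold counts. The median difference was 0.34 for polymerase genes (quartiles 0.02 and 0.47), 0.39 for Mediator (-0.04 and 0.79) and 0.37 for general factors (-0.44 and 0.65), against -0.01 for all genes (-0.45 and 0.42). These medians lie close together and without replicates no order between the groups can be read. Readings of 1 gene by different probe sets had an SD of 0.72 over the array. Signals were higher after renal ischaemia-reperfusion for 18 of 23 polymerase genes (78.3%), 17 of 24 Mediator genes (70.8%) and 13 of 20 general factors (65.0%), and for 49.3% of all genes. Without the filter and with every probe set counted, 101 of 162 (62.3%) were higher, against 50.2% of the 34945 probe sets of 1 gene. In the sham pool 23 of 25 polymerase, 21 of 31 Mediator and 18 of 22 general factor genes reached the array median. After renal ischaemia-reperfusion they were 23, 23 and 19. Of all genes 66.1% did so in either pool, so the Mediator shares of 67.7% and 74.2% lie nearer to the background than the polymerase share of 92.0% in both pools.

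The size of this shift depends on the reference, since the arrays had been scaled to a common mean. All 18 probe sets for bacterial hybridisation controls were higher on the renal ischaemia-reperfusion array, by a median of 0.28. With these controls as the reference the median of all genes is -0.30, and the groups stand at 0.05, 0.10 and 0.09, with 12 of 23, 15 of 24 and 12 of 20 members higher. Of all genes past 2-fold, 27.3% are then higher instead of 47.6%. The distance between the groups and all genes is the same under both references, since the shift moves every gene alike, but the groups' own medians are then close to 0. Centring, a loess trend and quantile normalization left the medians between 0.33 and 0.41.

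**Figure D1:**
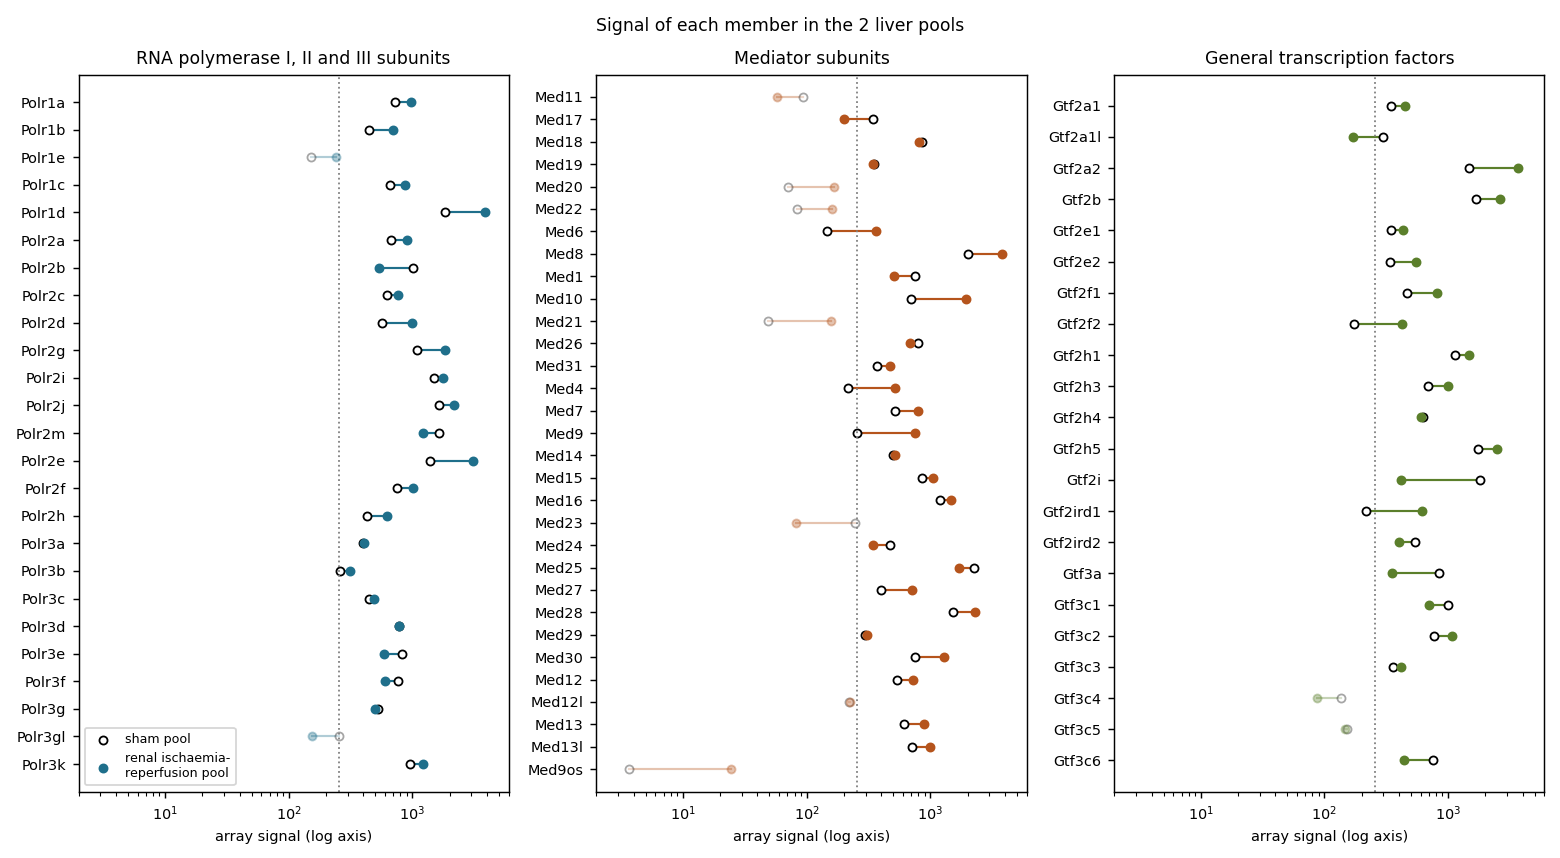
Array signal (log axis) of every member in the sham pool (open circles) and the renal ischaemia-reperfusion pool (filled circles), by group and ordered by role. The dotted line is the sham array median of 257.0, and pale symbols are members under the filter. Most filled circles lie a little to the right of the open ones, while Gtf2i went from 1807 to 413.3.

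The 2 polymerase genes past 2-fold, Polr2e and Polr1d, both encode subunits shared between enzymes. Polr2e, common to polymerases I, II and III, went from 1389 in the sham pool to 3059 after renal ischaemia-reperfusion (2.19-fold higher). Its other probe set past the filter, open to cross-hybridisation, was higher too (0.91). Polr2f, another common subunit, went from 753.2 to 1014 (0.42), and a dimmer probe set gave 1.53. Polr2h, also common to the 3 enzymes, went from 430.5 to 618.4 (0.51). All probe sets past the filter for these 3 genes were thus higher after renal ischaemia-reperfusion. Polr1d, shared by polymerases I and III, had 1839 and 3871 by its brightest probe set, a 2.09-fold difference, but that probe set can cross-hybridise. Of its other probe sets, those with a sham signal of 1035 and 1500.3, the latter also open to cross-hybridisation, gave 0.95 and 0.90, and the fourth, at 1735 and 1682, gave -0.04. Polr1c, the partner of Polr1d in both enzymes, went from 656.8 to 865.3 (0.39).

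The largest subunits did not all differ in the same direction. Polr2a, the largest subunit of polymerase II, which carries the phosphorylated tail, went from 670.8 to 907.1 (0.43), and its second probe set from 537.8 to 498.7 (-0.11). Polr2b, which forms the catalytic centre with it, went the opposite way, from 1007 to 535.0 (-0.89), the lowest difference among polymerase genes. Of the remaining polymerase II subunits, Polr2d (567.5 to 986.3, 0.78) and Polr2g (1081 to 1843.5, 0.76), which form the stalk, stood higher than Polr2c (0.28), Polr2i (0.25) and Polr2j (0.41). Polr2m, known as a factor that makes polymerase II depend on Mediator, went from 1644.0 to 1216 (-0.43). For polymerase I, Polr1a, its largest subunit, went from 726.0 to 978.6 (0.42) and Polr1b, its second largest, from 448.8 to 690.6 (0.60). A second probe set of Polr1a gave -0.22. Polr1e had signals under the median (150.7 and 239.8).

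The annotation still lists further polymerase I subunits under the older symbols Twistnb, Znrd1 and Cd3eap, which the symbol rule does not take. Twistnb went from 735.8 to 1427 (0.94, and 1.22 by its other probe set), and Znrd1 from 641.5 to 903.1 (0.48). Cd3eap was dim in both pools.

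Subunits with a Polr3 symbol, found only in polymerase III, stayed within a narrow range by their brightest probe set. The 8 that passed ranged from -0.47 to 0.34 with a median of 0.02, and none differed by as much as 1.5-fold. Within 1.5-fold lay 17 of the 23 polymerase genes, these 8 included, and 8132 of all 13117 genes. Polr3d had 779.4 and 779.9, Polr3a, the largest subunit, 398.3 and 406.8 (0.03), and Polr3g 528.5 and 499.1 (-0.08). The 3 probe sets of Polr3a ranged from -0.21 to 0.22. Polr3e had the lowest value (816.9 to 584.5, -0.47), but its other probe set went from 403.8 to 553.3 (0.44). Polr3k had the highest (953.4 to 1209.5, 0.34, open to cross-hybridisation), with its 4 probe sets past the filter between -0.27 and 0.47. With the hybridisation controls as the reference, the median of these 8 is -0.27 and 1 was higher, while the subunits found only in polymerase II stand at 0.059. Which set lies nearest to no difference thus depends on the reference. The 5 probe sets of Polr3f ranged from -0.84 to 1.12, which shows how far readings of 1 gene can lie apart. Polr3gl, the form of Polr3g common in adult tissues, was just under the median in the sham pool (253.7) and at 154.0 after renal ischaemia-reperfusion. Crcp, a polymerase III subunit with another symbol, went from 856.7 to 1629 (0.91) and is given below with the polymerase III factors. Whether polymerase III subunits differ from the shared ones beyond error was not tested.

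**Figure D2:**
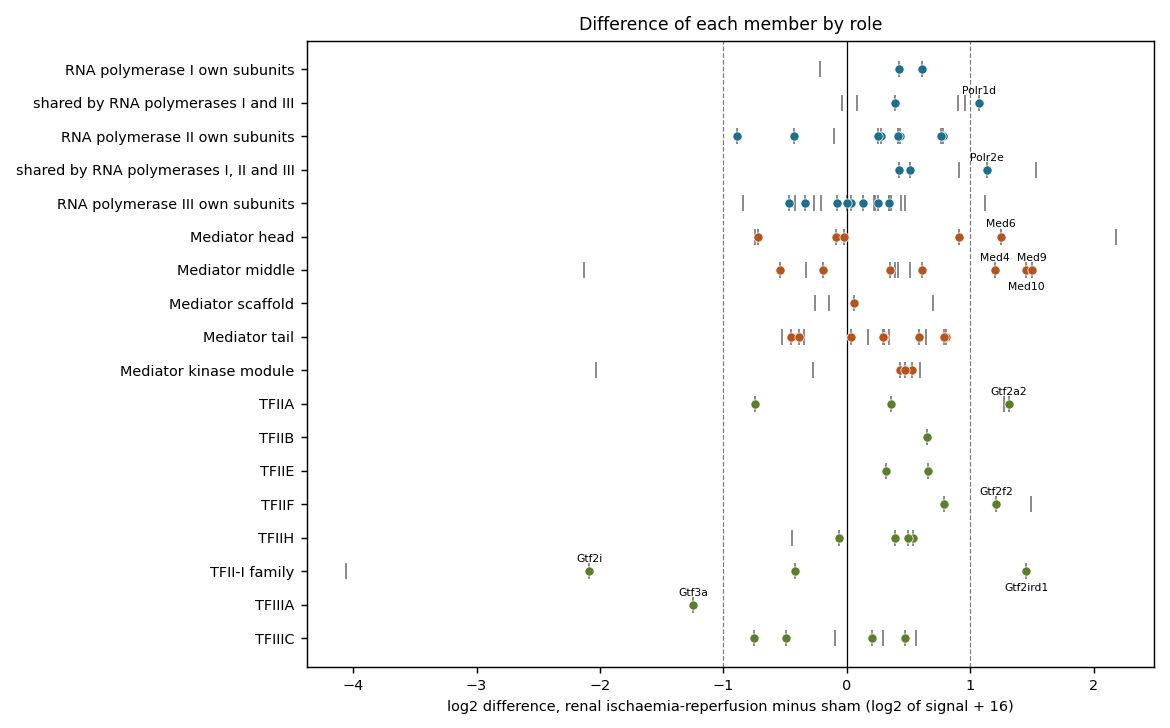
Log2 difference of each member past the filter (coloured points, brightest probe set) by role, with all its probe sets past the filter as grey ticks and dashed lines at 2-fold. The polymerase III row lies between -0.47 and 0.34 by its points, while the Mediator middle and TFII-I rows reach past 2-fold.

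In Mediator, 3 of the 4 genes past 2-fold encode subunits of the middle module. Med10 went from 703.8 to 1954 (2.74-fold higher), with 1 probe set, and it was the only Mediator gene past 2-fold with both signals at or above the median. Med9 went from 255.5 to 752.3 (at least 2.81-fold higher), its sham signal lying just under the array median, and its other probe set gave 0.41. Med4 went from 214.5 to 513.8 (at least 1.94-fold higher). Med7, which with Med21 forms the hinge of the middle, went from 521.7 to 801.7 (0.60), and Med21 was dim in both pools (48.3 and 157.3). Med31 stood at 0.35. Med26, which hands elongation factors to polymerase II, went from 792.4 to 689.4 (-0.20). Med1 ran the other way by its brightest probe set (748.0 to 509.5, -0.54), but its 5 probe sets past the filter ranged from -2.13 to 0.51 and settle no direction.

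Head subunits were mixed. Med8 went from 2019 to 3811 (0.91) by its brightest probe set and from 432.5 to 251.8 by the other (-0.74). Med6 went from 145.6 to 366.7 (at least 1.40-fold higher). Med17, the central head subunit, had 344.2 and 202.3 by 1 probe set (-0.72) and 92.6 and 475.3 by the other (2.18), so it has no settled direction. Med18 (864.7 and 813.5) and Med19 (348.7 and 343.5) had nearly equal signals. Med11, Med20 and Med22 were under the median in both pools.

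Tail and kinase module subunits stayed within 2-fold. In the tail, Med27 (402.8 to 715.5, 0.80), Med30 (745.2 to 1297.5, 0.79) and Med28 (1529.5 to 2300, 0.58) were the highest. Med24 was the lowest, from 475.9 to 343.0 (-0.45), with both its probe sets lower. Med25 went from 2258 to 1718 (-0.39), and its other probe set gave 0.34. Med15 (0.30), Med16 (0.29) and Med29 (0.03) lay between, and another probe set of Med29 gave -0.52. In the kinase module, Med12 (539.8 to 731.0, 0.43), Med13 (607.7 to 882.4, 0.53) and Med13l (706.8 to 985.8, 0.47) stood close together by their brightest probe set. A dimmer probe set of Med13l gave -2.03, and the 3 of Med13 past the filter ranged from -0.28 to 0.59. Med14, the scaffold that holds the modules together, had 497.2 and 517.7 (0.06), with its 4 probe sets past the filter between -0.26 and 0.70.

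The general factors held both the largest lower differences and some of the higher ones. Gtf2i, which encodes TFII-I, a DNA-binding factor with signalling roles outside the basal machinery, went from 1807 to 413.3 (4.25-fold lower). Its second probe set past the filter went from 839.8 to 35.3, also lower. Of the related genes, Gtf2ird1 went from 216.3 to 619.3 (at least 2.33-fold higher) and Gtf2ird2 from 543.7 to 402.5 (-0.42). Gtf3a, which encodes TFIIIA, the factor for the 5S ribosomal RNA genes, went from 847.2 to 348.5 (2.37-fold lower) by its only probe set. Gtf2i and Gtf3a were at least 2-fold lower in all 13 alternatives that give a value for them. For Gtf3a, with 1 probe set bright in both pools, filters and choices of probe set could not change the value.

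The factors that build the polymerase II start complex were mostly higher. Gtf2a2, the small TFIIA subunit, went from 1477 to 3695 (2.49-fold higher) and was past 2-fold in all 13 alternatives. It has 1 probe set, bright in both pools, so only references, scalings and pseudocounts could change its value. Its partner Gtf2a1 went from 342.5 to 443.9 (0.36), and Gtf2a1l, a relative best known from testis, from 298.6 to 171.4 (at least 1.16-fold lower). Gtf2b, the whole of TFIIB, went from 1670 to 2632.5 (0.65). In TFIIE, Gtf2e1 stood at 0.31 and Gtf2e2 at 0.66. In TFIIF, Gtf2f1 went from 465.7 to 813.6 (0.78, and 1.49 by its other probe set), and Gtf2f2 from 173.3 to 420.9 (at least 1.60-fold higher). Of TFIIH, the complex that opens promoter DNA and also serves nucleotide excision repair, Gtf2h1 (0.39), Gtf2h3 (0.53) and Gtf2h5 (1757 to 2483, 0.50) were higher by less than 1.5-fold, and Gtf2h4 had 629.9 and 601.8. The TFIIIC subunits, which bind promoters inside transfer RNA genes, were split: Gtf3c2 stood at 0.47 and Gtf3c3 at 0.20, Gtf3c1 at -0.49 and Gtf3c6 at -0.75. A second probe set of Gtf3c6 gave 0.29, and the 3 of Gtf3c2 past the filter ranged from -0.10 to 0.56.

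Agreement between probe sets limits how far single members can be read. Of the 67 members, 38 had 1 probe set past the filter. Of the 29 with several, 17 (58.6%) had probe sets of both signs, against 44.7% of 5028 such genes on the array. The SD between probe sets of a member was 0.73, close to 0.72 for all genes and not far from the 2-fold line of 1 on this scale. Every probe set past the filter was higher for 9 of the 29 (Gtf2a1, Gtf2f1, Med15, Med28, Med9, Polr1c, Polr2e, Polr2f and Polr3c) and lower for 3 (Gtf2h4, Gtf2i and Med24). Near the 2-fold line, Med27 (1.75-fold), Polr2b (1.86-fold lower) and Med8 (1.88-fold) fell just short, and Polr1d (2.09-fold), Polr2e (2.19-fold) and Med4 (2.30-fold as measured) just passed.

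**Figure D3:**
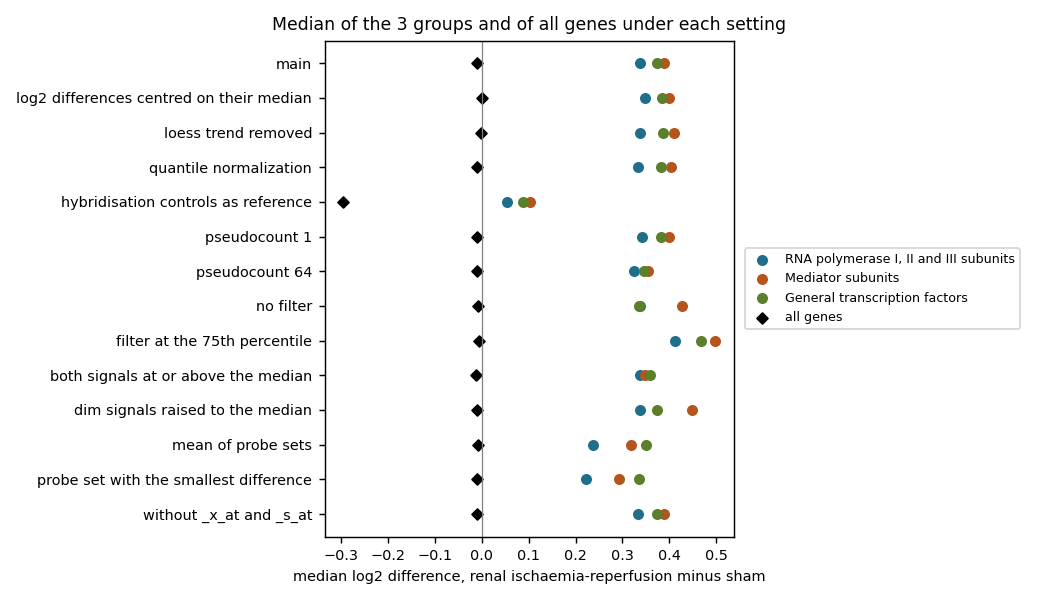
Median log2 difference of the 3 groups (coloured points) and of all genes (black diamonds) under each setting of the processing. The groups lie between 0.22 and 0.50 except with the hybridisation controls as the reference, where all points move left together.

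Partners of the machinery were read from lists written with earlier results of these arrays known. Beside their counts at 2-fold, 8.71% of all genes past the filter were higher and 9.59% lower. Factors of polymerase I and ribosomal RNA transcription had a median of 0.59 over 10 genes, of which 2 passed 2-fold on the higher side and 0 on the lower. Nucleolin (Ncl), a nucleolar protein, went from 1580.1 to 4259 (1.42), and Ttf1, the polymerase I termination factor, from 372.2 to 761.5 (1.00). The lowest of the list were Rrn3 (-0.05), which brings polymerase I to its promoter, and Fbl (0.03). For polymerase III factors the median was 0.44 over 7 genes, with 0 past 2-fold. They ran from Bdp1 (-0.52) and Snapc2 (-0.08) to Maf1 (0.53), the repressor of polymerase III, and Crcp (856.7 to 1629, 0.91), itself a subunit.

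TFIID, the complex that recognises promoters, stayed within 2-fold for all 11 genes measured (median 0.13), from Taf13 (-0.55) and Taf4 (-0.42) to Taf2 (0.60) and Taf12 (0.67). The TATA-binding protein Tbp went from 723.6 to 960.3. The remaining TFIIH genes had a median of 0.20 over 4 genes and 0 past 2-fold, with Ercc2 (-0.05) and Cdk7 (0.07) lowest and Ccnh (0.33) and Mnat1 (0.57) highest by their brightest probe set. Only Mnat1, with 1 probe set past the filter, has no opposed readings: the others range from -0.05 to 0.71 for Ercc2, from -0.46 to 1.79 for Cdk7 and from -2.92 to 0.33 for Ccnh, where 2 of 3 were lower. The 3 Mediator kinase partners had a median of -0.41, with 0 past 2-fold higher and 1 lower. Cdk8, the kinase itself, went from 415.7 to 112.8 (at least 1.60-fold lower), cyclin C (Ccnc) stood at -0.41, and Cdk19, the paralog of Cdk8, went from 761.1 to 864.8 (0.18).

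Among 23 elongation factor genes of polymerase II the median was 0.17. Past 2-fold, 3 were higher and 1 lower, against 8.71% and 9.59% of all genes. With both signals at or above the median, 2 were higher and 0 lower. The highest of the 23 were Rtf1 of the PAF complex (72.5 to 436.1, at least 1.66-fold) and Eaf1 (544.4 to 2005, 1.85), a partner of the elongation factor Ell. The lowest were Tcea3, a tissue-restricted TFIIS gene (820.3 to 205.0, at least 3.10-fold lower), and Hexim1 (1601 to 863.5, -0.88), which holds the elongation kinase inactive. Assembly factors and phosphatases of the polymerase tail had a median of -0.06 over 14 genes, with 3 higher and 1 lower at 2-fold. With both signals at or above the median, 1 was higher and 0 lower. Rpap3, a chaperone adaptor for polymerase assembly, went from 48.2 to 868.9 (at least 3.24-fold higher), and Ctdp1, the main tail phosphatase, from 239.9 to 808.3 (at least 3.02-fold higher). Ctdspl (380.6 to 55.2, at least 1.47-fold lower) and Ctdsp1 (3942 to 2083, -0.91) were the lowest. Mitochondrial transcription genes had a median of 0.12 over 7 genes, from the mitochondrial polymerase Polrmt (-0.41) and Mterf3 (-0.17) to Mterf4 (0.56) and Mterf2 (160.8 to 339.5, at least 1.30-fold higher).

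The medians of these lists move with the processing. With each gene's least different probe set the polymerase I factors stand at 0.26 and the polymerase III factors at 0.28, so no order between them holds. Without the filter the polymerase III factors stand at 0.013 over 11 genes. With the hybridisation controls as the reference the polymerase I and III factors have medians of 0.30 and 0.15, while TFIID (-0.15), the TFIIH genes (-0.083), the elongation factors (-0.11) and the mitochondrial genes (-0.16) turn negative. The assembly factors and phosphatases stand at -0.35 under that reference and at 0.18 by the mean of probe sets. The Mediator kinase partners stand at -0.70 under it, and at 0.18 with the filter at the 75th percentile, which leaves Cdk19 alone.

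**Figure D4:**
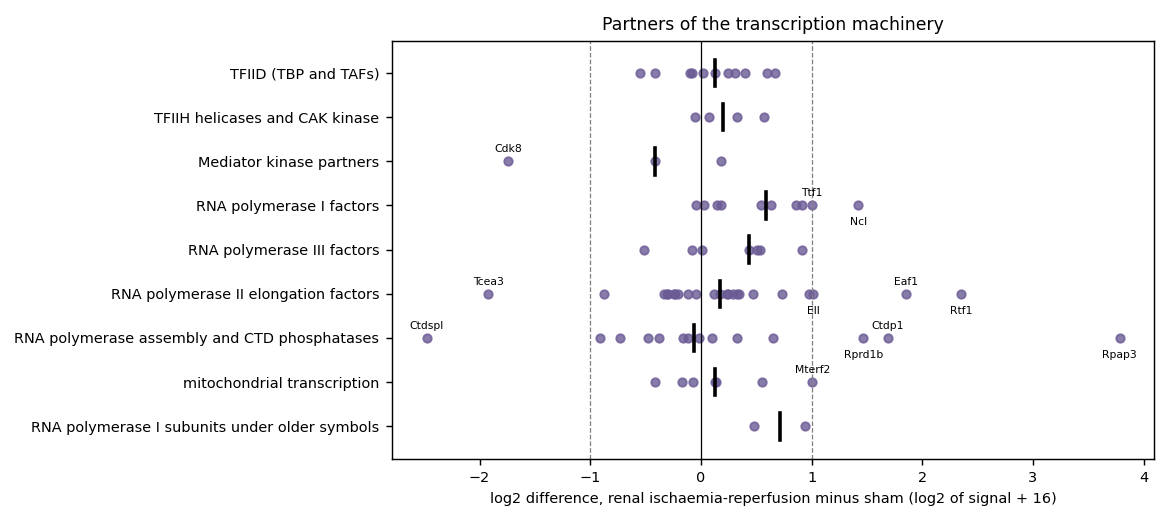
Log2 difference of each partner gene past the filter (points) by list, with the list median as a black bar and dashed lines at 2-fold. Genes dim in 1 pool are drawn at their measured difference. The polymerase I factors have a median of 0.59 in this setting, and single genes such as Rpap3 and Ctdspl lie far from their list. The bottom row holds Twistnb and Znrd1.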

How the data were processed

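The authors deposited 1 linear array intensity per probe set and pool. With 2% of values trimmed from either end, both arrays had a mean of 500.0, so the deposited values share a common scale. The software that summarised the probes was not given in the sources used here. Per the labels' protocols, RNA was extracted with Trizol and 6 ug was labelled with biotin by the Affymetrix protocol.

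Groups come from the treatment label. Genes were named from a table of the platform's annotation, which can be old, with symbols updated by Entrez ID to RefSeq (GRCm38.p6) for 34741 of 34945 probe sets of 1 gene. The 932 probe sets of several genes and 9160 of none were left out.

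Differences, counts at 2-fold and medians were computed with Python 3.11.15 (numpy 2.4.6, pandas 2.3.3), and the loess trend (span 0.3) with statsmodels 0.14.6. The code was tried on simulated arrays with large planted differences, which says nothing about the error of the differences given here. Suffixes _x_at and _s_at mark probe sets that can cross-hybridise. All members could be named, with the 2 highest and 2 lowest genes of each partner list, plus Tbp, Ccnc, Cdk19 and the older-symbol subunits, added after their values were seen. Members, lists and alternatives were chosen with earlier results of these data known. The alternatives were other references and scalings, pseudocounts of 1 and 64, other filters, other choices of probe set, and thresholds of 1.5-fold and 3-fold. The 2 arrays limit the precision, and no error between mice can be given.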

Additional observations from a re-analysis of the deposited data

How the results depend on the processing

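No paired analysis was possible because each group is 1 pool on 1 array. The polymerase, Mediator and general factor medians kept their sign in all 13 alternatives. They moved farthest with the hybridisation controls as the reference, to 0.054, 0.10 and 0.088. Under that reference 5.76% of all genes passed 2-fold higher and 15.4% lower. Polymerase genes then had 0 higher and 1 lower, Mediator genes 2 higher and 1 lower, and general factors 2 higher and 4 lower. With both signals at or above the median, 5.14% of all genes were higher and 6.17% lower, with 1 Mediator gene and 1 general factor higher. With dim signals raised to the median, 5.59% of all genes and 2 Mediator genes were higher. Without a filter 7 of 31 genes with a Mediator symbol were higher and 1 lower, against 9.18% and 9.99% of all genes. The 7 include Med9os, no subunit, with signals of 3.7 and 24.3. With the filter at the 75th percentile 2 of 16 Mediator genes were higher, against 8.37% of all genes. Polymerase genes had 1 higher by the mean of probe sets, 0 by each gene's least different probe set and 1 without suffixes _x_at and _s_at. Polr1d stood at -0.044 in the last 2 of these settings, the reverse of its 1.07. At 1.5-fold, 18.7% of all genes were higher and 19.3% lower, with 5 and 1 polymerase, 8 and 1 Mediator, and 6 and 4 general factor genes. At 3-fold these were 3.60% and 4.49%, with 0 polymerase, 0 Mediator and 0 general factor genes higher and 1 general factor lower. Thresholds and filters change counts by construction. For the other differences the cause was not tested. Of the 11 members past 2-fold, Gtf2a2, Gtf2i, Gtf2ird1, Gtf3a and Med10 stayed past it in every alternative that gives them a value, and Polr2e ranged from 0.85 to 1.14. Gtf2a2, Gtf3a and Med10 have 1 probe set each, bright in both pools, which filters and choices of probe set leave unchanged. Dim signals limit Gtf2f2, Gtf2ird1, Med4, Med6 and Med9, whose sham signal lay under the array median.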
